A study of Mus musculus with 12 samples.

Results

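Neutrophil granule and receptor genes were followed in whole blood of mice under chronic hypoxia (CH), in normoxic recovery (REC) and under normoxia (NX). The members are 10 named genes, Ngp, Camp, Ltf, Lcn2, S100a8, S100a9, Mmp8, Mmp9, Csf3r and Cxcr2, and they were taken as all probe sets that the annotation of the platform assigns to them. These are 11 of the 45101 probe sets of the Affymetrix Mouse 430 2.0 array, and 10 of the 18194 genes named by a probe set with a single gene. Mmp9 has a pair of probe sets and every other member has 1. All mice were C57Bl/10 and are given as 3 months old. The authors state this age for the mice as obtained, so the age at the draw may differ between groups. Blood was drawn from the inferior vena cava, with 1 mouse on each array and 4 arrays per group. CH mice spent 14 days in a chamber in which oxygen was lowered to 8% by the end. REC mice went through the same 14 days of hypoxia and then breathed 21% oxygen for 14 days more. NX mice were kept at 21% oxygen throughout. A field of the labels names the CH mice as normoxic, against their titles and treatment, and was not followed.

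Neutrophils build their granules in order as they mature in the bone marrow. Azurophil granule proteins such as myeloperoxidase are made in promyelocytes, specific granule proteins in myelocytes and metamyelocytes, and gelatinase granules last, so that transcripts of the early granules are mostly gone from cells that circulate. Blood neutrophils keep large amounts of the transcripts of the cytosolic calgranulins and of the receptors through which they are produced and drawn into tissue. Among the members, Ngp, Camp, Ltf and Lcn2 encode specific granule proteins (the neutrophilic granule protein, the cathelicidin antimicrobial peptide, the iron-binding lactoferrin and the siderophore-binding lipocalin 2). Mmp8 and Mmp9 encode neutrophil collagenase and gelatinase B, S100a8 and S100a9 the subunits of calprotectin, Csf3r the receptor of the growth factor G-CSF, and Cxcr2 the receptor of CXC chemokines that call neutrophils out of the marrow. The last 6 are called mature genes here, a name of convenience, since Mmp8 and Mmp9 encode granule proteins too.

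The sequences just before the starts of the 4 specific granule genes are shown because Ngp, Camp and Ltf shared their high and low mice in NX, where Lcn2 had another order. In CH mice Camp and Ltf deviated in opposite directions, so this holds for the NX group. Each is the 250 bases upstream of the start in RefSeq annotation of GRCm38.p6, read 5′ to 3′ along the strand of the gene. They lie at chr9:110419558-110419807 on the plus strand for Ngp, chr9:109849457-109849706 on the minus strand for Camp, chr9:111019042-111019291 on the plus strand for Ltf and chr2:32387740-32387989 on the minus strand for Lcn2. Capitals mark matches to TTGCNNAA or to its reverse complement TTNNGCAA, the core of the sites that C/EBP proteins bind, a family of transcription factors that the granule genes need in maturing neutrophils.
Ngp: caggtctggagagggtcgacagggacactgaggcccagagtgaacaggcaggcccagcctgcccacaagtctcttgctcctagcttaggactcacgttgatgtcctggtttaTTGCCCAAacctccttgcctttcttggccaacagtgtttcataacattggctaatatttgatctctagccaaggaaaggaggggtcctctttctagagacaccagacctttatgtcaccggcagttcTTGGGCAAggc
Camp: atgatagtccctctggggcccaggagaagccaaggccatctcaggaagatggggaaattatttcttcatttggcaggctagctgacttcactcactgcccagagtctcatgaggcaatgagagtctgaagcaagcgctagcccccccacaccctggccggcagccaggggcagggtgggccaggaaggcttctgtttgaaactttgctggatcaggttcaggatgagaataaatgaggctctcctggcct
Ltf: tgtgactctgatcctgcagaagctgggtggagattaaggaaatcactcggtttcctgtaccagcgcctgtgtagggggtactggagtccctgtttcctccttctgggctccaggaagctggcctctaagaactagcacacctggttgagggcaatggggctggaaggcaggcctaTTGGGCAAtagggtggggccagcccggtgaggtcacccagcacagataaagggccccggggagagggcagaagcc
Lcn2: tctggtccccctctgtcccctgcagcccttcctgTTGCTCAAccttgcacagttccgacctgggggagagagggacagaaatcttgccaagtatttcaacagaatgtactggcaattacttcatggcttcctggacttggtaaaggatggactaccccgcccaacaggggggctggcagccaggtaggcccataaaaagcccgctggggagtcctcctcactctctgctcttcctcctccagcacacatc
A window was found for 9 of the 10 members, all but Mmp9. The motif was in 5 of these 9 windows, with 6 matches, and in 9.56% of all 32851 windows of the same length. Ngp had matches that begin 138 and 11 bases before the start, Ltf 75, Lcn2 216, S100a9 236 and Mmp8 19 bases before it, and the windows of Camp, S100a8, Csf3r and Cxcr2 had none of these letters. Ngp, Camp, Ltf and Mmp8 lie on chromosome 9, S100a8 and S100a9 on chromosome 3, Lcn2 on chromosome 2, Csf3r on chromosome 4 and Cxcr2 on chromosome 1.

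The signals as deposited are linear, and all arrays share a trimmed mean of 150. Log2 values were taken of the signal plus 16, which understates the change of dim transcripts. The 100 brightest probe sets held 19.9% to 22.1% of the signal in CH, 8.46% to 10.3% in REC and 10.6% to 13.8% in NX. The 5 erythroid markers, whose sum is mostly that of Alas2, an enzyme of heme synthesis, and Slc4a1, an anion exchanger of red cells, had summed signals of 92862 to 148700 in CH, 4276 to 14688 in REC and 20414 to 31898 in NX. The hybridization controls are bacterial and phage transcripts spiked at a fixed amount. They had a mean log2 signal of 14.0 to 14.6 in CH, 11.6 to 12.2 in REC and 12.3 to 13.1 in NX. The ratio of 3′ to 5′ actin probe sets was 1.91 to 2.11 in CH, 1.54 to 1.73 in REC and 1.61 to 1.86 in NX. All 4 measures moved with the groups, and their part in the results below was not tested. In whole blood, fewer neutrophils and less of a transcript in each neutrophil cannot be told apart.

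None of the neutrophil members was called changed with chronic hypoxia or with recovery. Many other transcripts of the same blood were called in the comparisons with CH. In REC against NX few were, and 0 members called there is near the share of all probe sets. To be called, a probe set needed a change of at least 2-fold and an adjusted p under 0.05 over all 45101 probe sets (limma, Benjamini-Hochberg). In CH against NX, 0 of the 11 member probe sets were called, against 22.0% of all probe sets. In REC against NX it was 0 of 11, against 4.36%, and in CH against REC 0 of 11, against 27.8%. An unadjusted p under 0.05 was reached by 0 members in CH against NX (38.4% of all probe sets), by 0 in REC against NX (17.8%) and by 2, Ltf and Mmp8, in CH against REC (46.1%), and a test per probe set without moderation also called 0 in each comparison. The scaling of the arrays changed these counts, to 2 in CH against NX and 3 in CH against REC under quantile normalization and to 7 and 10 with scaling on the hybridization controls, while REC against NX stayed at 0 under both. Groups that did not overlap were seen in 0 member probe sets for CH against NX (26.1% of all probe sets), in 0 for REC against NX (20.3%) and in 1, that of Ltf, for CH against REC (32.4%). The median log2 change of the 10 genes was 0.29 in CH against NX, -0.19 in REC against NX and 0.22 in CH against REC, beside 0.11, -0.10 and 0.25 over all probe sets. CH against NX and REC against NX share the NX arrays, and CH against REC uses the arrays of both.

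Among the specific granule genes, Ngp had signals of 249, 136, 416 and 349 in CH mice, 75.3, 163, 211 and 157 in REC mice and 56.8, 262, 268 and 114 in NX mice (replicates 1 to 4 of each group, as in all such lists here). The 2 highest values came from CH mice, but NX replicates 2 and 3 lay above CH replicates 1 and 2 and the groups overlapped. The log2 change was 0.77 in CH against NX (standard error 0.46, adjusted p = 0.232 from limma) and -0.05 in REC against NX (adjusted p = 0.976). Camp had signals of 82.0, 84.2, 150 and 168 in CH mice, 86.5, 222, 169 and 112 in REC mice and 44.1, 157, 184 and 53.7 in NX mice. The NX mice held both the 2 lowest values and the second highest, and the SD within NX, 0.89 on the log2 scale, exceeded the log2 change of 0.26 in CH (adjusted p = 0.678) and of 0.50 in REC against NX (adjusted p = 0.606, both limma).

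Ltf was the dimmest member, with signals of 111, 123, 87.2 and 77.9 in CH mice, 28.3, 34.2, 59.0 and 58.2 in REC mice and 33.8, 109, 107 and 37.2 in NX mice. Every CH mouse lay above every REC mouse, and the NX mice fell in pairs at either end. Ltf averaged 99.8 ± 20.8 in CH and 44.9 ± 15.97 in REC (SD, n = 4 each). Its log2 change of 0.95, with a standard error of 0.34, had an adjusted p of 0.041 from limma and missed the limit of 2-fold. By p alone it was 1 of 11 member probe sets past the limit in CH against REC, against 35.7% of all probe sets, and it was the member whose groups did not overlap there. With the arrays scaled on the hybridization controls the log2 change turned to -0.96 (adjusted p = 0.073). Lcn2 had signals of 1615, 263, 490 and 505 in CH mice, 497, 508, 332 and 463 in REC mice and 201, 355, 299 and 1005 in NX mice. A single mouse stood far above its group in CH (replicate 1) and in NX (replicate 4), the REC mice lay close together, and the log2 change was 0.55 in CH against NX (standard error 0.51, adjusted p = 0.455) and 0.20 in REC against NX (adjusted p = 0.902, both limma).

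**Figure D1:**
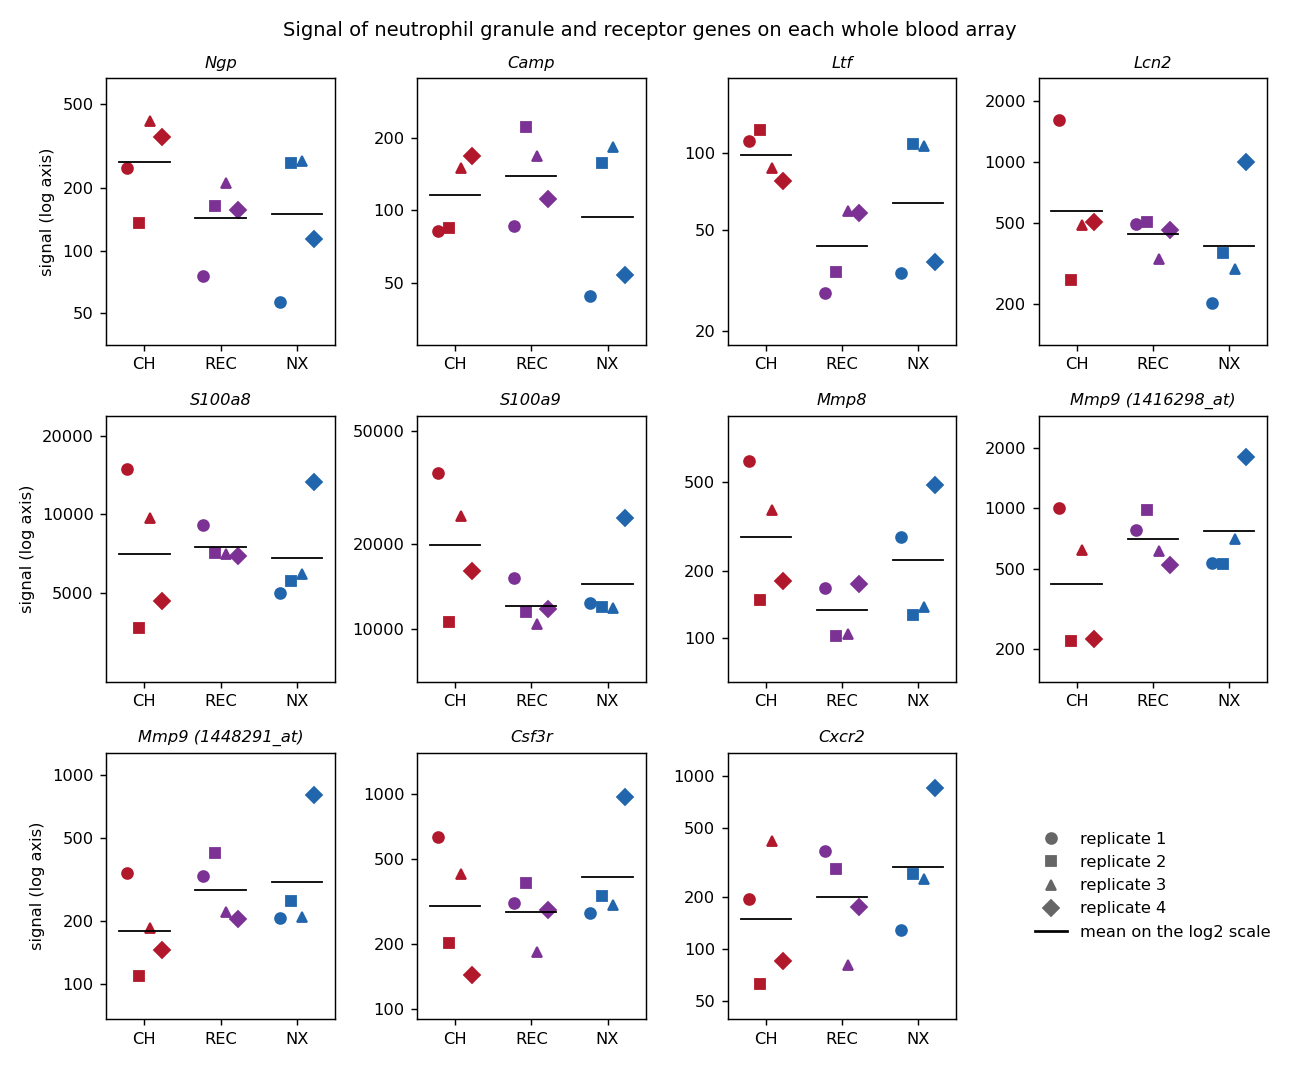
Signal of each member probe set (log axis) in CH, REC and NX, with 1 point per array, the symbol giving the replicate, and a line at the mean on the log2 scale. The groups overlap in every panel except for Ltf between CH (77.9 to 123) and REC (28.3 to 59.0), and NX replicate 4 is the highest NX mouse in Lcn2 and in all 7 panels of the mature genes.

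The calgranulins were the brightest members. S100a8 had signals of 14917, 3671, 9730 and 4690 in CH mice, 9152, 7099, 7032 and 6947 in REC mice and 5026, 5561, 5908 and 13281 in NX mice. CH mice were both the highest and the lowest of all 12, and the means on the linear scale were 8252 ± 5173 in CH, 7558 ± 1065 in REC and 7444 ± 3908 in NX (SD, n = 4 each). The log2 change was 0.05 in CH (standard error 0.42, adjusted p = 0.945) and 0.13 in REC against NX (adjusted p = 0.924, both limma). S100a9 followed the same mice, with signals of 35428, 10559, 25125 and 16054 in CH, 15176, 11436, 10409 and 11790 in REC and 12376, 11972, 11860 and 24630 in NX. Its log2 change was 0.45 in CH against NX (standard error 0.36, adjusted p = 0.387), -0.26 in REC against NX (adjusted p = 0.792) and 0.71 in CH against REC (adjusted p = 0.138, all limma). The sign of both in CH against NX depended on the scaling of the arrays. Under quantile normalization S100a8 had a log2 change of -1.16 (adjusted p = 0.030) and S100a9 of -1.14 (adjusted p = 0.020) in CH against NX, and -1.69 and -1.48 in CH against REC, and all 4 passed the limits. Under that normalization 11.8% and 15.3% of all probe sets were called lower in CH against NX and in CH against REC.

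Of the granule proteases, Mmp8 had signals of 619, 148, 373 and 180 in CH mice, 166, 102, 104 and 174 in REC mice and 282, 127, 137 and 485 in NX mice. The REC mice were at the low end, and CH replicate 2 and NX replicates 2 and 3 lay among them. The log2 change was 0.32 in CH against NX (adjusted p = 0.646), -0.69 in REC against NX (adjusted p = 0.497) and 1.01 in CH against REC (standard error 0.46, adjusted p = 0.101 from limma), the last past 2-fold but not past the limit on p. It was called there under quantile normalization, at 1.31 (adjusted p = 0.039), and had the opposite sign with the hybridization control scaling, at -1.19 (adjusted p = 0.019). Mmp9, by its brighter probe set, had signals of 1007, 220, 624 and 224 in CH mice, 782, 980, 617 and 523 in REC mice and 535, 527, 702 and 1810 in NX mice. CH replicates 2 and 4 were below all other arrays, and the log2 change was -0.85 in CH against NX (standard error 0.49, adjusted p = 0.218 from limma), where its dimmer probe set, with signals from 109 to 342 in CH, 204 to 423 in REC and 207 to 801 in NX, gave -0.73 (adjusted p = 0.234).

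Of the receptors, Csf3r had signals of 633, 204, 424 and 144 in CH mice, 312, 386, 185 and 287 in REC mice and 280, 334, 303 and 976 in NX mice. A pair of CH mice lay above every REC mouse, and NX replicate 4 was the highest of the 12. Its log2 change was -0.43 in CH (standard error 0.46, adjusted p = 0.531) and -0.51 in REC against NX (adjusted p = 0.646, both limma). Cxcr2 had signals of 193, 62.8, 420 and 84.6 in CH mice, 370, 290, 80.4 and 175 in REC mice and 128, 273, 255 and 858 in NX mice. It was the most variable member, and the highest mouse exceeded the lowest 6.70-fold in CH, 4.61-fold in REC and 6.69-fold in NX. Its log2 change was -0.94 in CH against NX, the lowest of all members, with a 95% interval from -2.24 to 0.35 (adjusted p = 0.274 from limma), and -0.55 in REC against NX (adjusted p = 0.722).

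**Figure D2:**
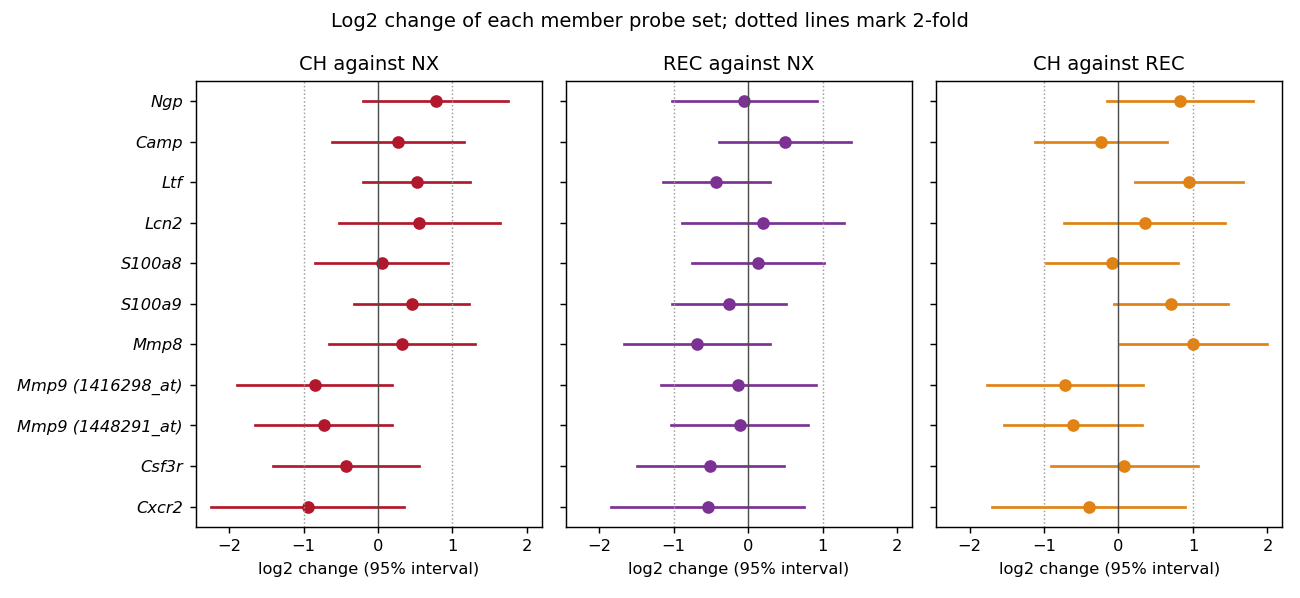
Log2 change of the 11 member probe sets in CH against NX, REC against NX and CH against REC, with points at the estimate, lines for the 95% interval from limma and dotted lines at 2-fold. The intervals of Ltf (0.23 to 1.67) and Mmp8 (0.02 to 1.99) in CH against REC are the only ones that leave out 0.

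These intervals are wide. The standard errors of the members lay between 0.34 and 0.61, and the 95% intervals reached from -2.24 to 1.75 in CH against NX, from -1.84 to 1.38 in REC against NX and from -1.76 to 1.99 in CH against REC, and most of them reached past 2-fold on at least 1 side. In sign, 7 of the 10 genes were above 0 and 3 below in CH against NX, 3 above and 7 below in REC against NX, and 6 above and 4 below in CH against REC. The adjusted p ranged from 0.218 to 0.945 in CH against NX, from 0.497 to 0.976 in REC against NX and from 0.041 to 0.903 in CH against REC. With the arrays scaled on the hybridization controls, which moved the median over all probe sets to -0.71 in CH against NX and -1.13 in CH against REC, 7 of the 11 member probe sets were called lower in CH than in NX, against 38.8% of all probe sets, and 10 lower in CH than in REC, against 53.2%. With the scaling as deposited those shares were 13.9% and 15.2%. With the hybridization control scaling the log2 change in CH against NX was -2.36 for Mmp9, -2.29 for Cxcr2 and -1.89 for Csf3r. These 3 lay the furthest below the moved median of -0.71, and Ngp, with a log2 change of -0.71, lay at the median itself.

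The mice of a group differed more in these genes than in most others. The standard deviation within groups was between 0.50 for Ltf and 1.03 for Cxcr2 on the log2 scale, where the median of the 12595 brighter probe sets was 0.41, and it was higher than that of 70.8% to 97.8% of them. In NX mice alone each member lay above 87.8% to 97.8% of the brighter probe sets. In REC mice S100a8, with an SD of 0.19, and S100a9, with 0.23, were below the median of 0.25, and Cxcr2, with 0.88, lay above 99.1%. In CH mice, whose median was 0.53, Ltf had 0.26 and Camp 0.48, both below it, and Cxcr2 had 1.12. Ltf is itself dimmer than the probe sets it was ranked against.

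Ngp, Camp and Ltf differed from the other 7 members in which NX mice were high. NX replicate 4 was the highest NX mouse in all 6 mature genes and in Lcn2, with a mean deviation of 1.15 from the group mean over these 7 genes, and CH replicate 1 was the highest CH mouse in 6 of the 7, with 1.01. Cxcr2 was the exception, highest in CH replicate 3. CH replicate 2 was the lowest in 6 of the 7. For Ngp, Camp and Ltf, NX replicates 2 and 3 were the high NX mice in all 3, with mean deviations of 0.68 and 0.76, and replicates 1 and 4 the low ones, with -0.91 and -0.53, and REC replicate 1 was the lowest REC mouse in all 3, with -0.61. NX replicate 4 was thus high in Lcn2, by 1.35, and low in Camp, by -0.66, and Ltf, by -0.58. In CH mice the 3 genes did not share a highest mouse. Ltf was above its CH mean in replicates 1 and 2 and below it in replicates 3 and 4, and Camp the reverse. The grouping of Lcn2 with the mature genes was made after its values were seen. The split did not follow the kind of granule throughout, since Lcn2 went with the mature genes. Further specific granule genes were mixed. In Hp, Pglyrp1 and Chil3, with a mean signal of at least 100, CH replicate 2 was the lowest CH mouse. NX replicate 4, with a mean deviation of 0.69 over the 3, was the highest NX mouse in Hp and Pglyrp1. Chil3 was highest in NX replicate 3, at 1119, with 909 in NX replicate 4. The dimmer Cd177, Olfm4 and Itgb2l were highest in NX replicates 4, 1 and 3. Ltf also had a mean signal below 100.

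**Figure D3:**
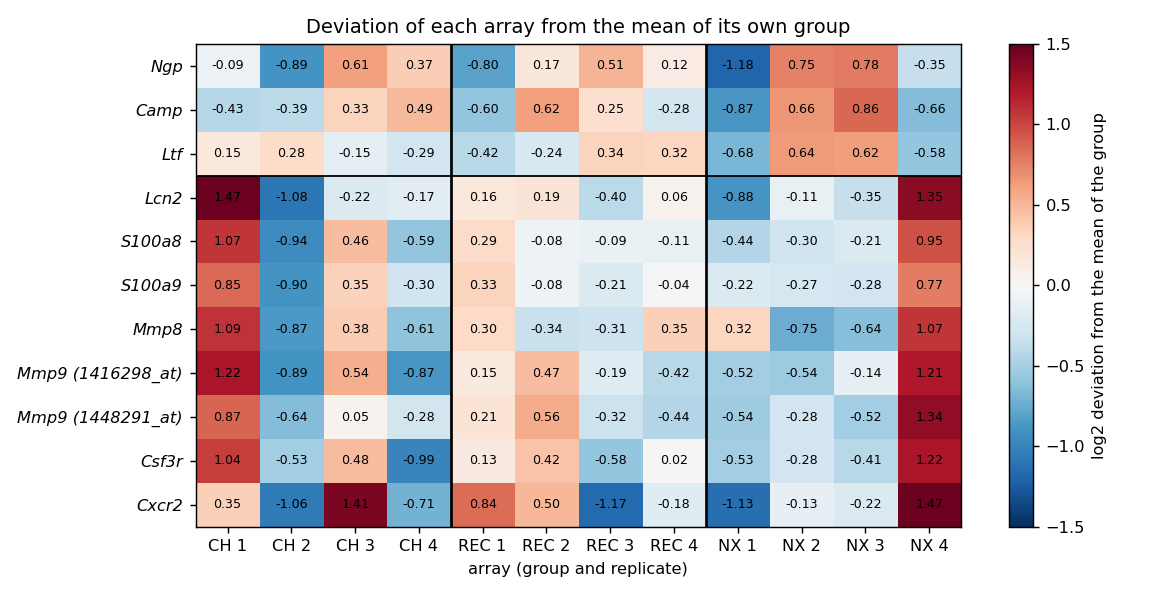
Log2 deviation of each array from the mean of its own group for the 11 member probe sets, with columns for the 4 CH, 4 REC and 4 NX arrays and a line below Ngp, Camp and Ltf. NX replicate 4 is at 0.77 or more from Lcn2 downwards and below 0 in Ngp, Camp and Ltf.

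Other mature neutrophil genes were high in the same mice, and the NADPH oxidase genes were high in others. Of 8 further mature neutrophil genes with a mean signal of at least 100, NX replicate 4 was the highest NX mouse in 8 and CH replicate 1 the highest CH mouse in 6. All 5 NADPH oxidase genes were highest in CH replicate 3 and in NX replicate 3, with mean deviations of -0.34 in CH replicate 1 and -0.0016 in NX replicate 4, and the azurophil gene Ctsc was highest in the same pair of mice. Fpr2, a receptor of formyl peptides, had signals of 764, 199, 426 and 187 in CH mice, 634, 483, 306 and 568 in REC mice and 247, 288, 295 and 870 in NX mice. C5ar1, the receptor of the complement fragment C5a, had 1841, 531, 951 and 414 in CH mice, 1297, 1193, 709.8 and 1693 in REC mice and 725, 946, 902 and 3600.1 in NX mice. In NX replicate 4 markers of other cells deviated less, by 0.23 for monocytes, -0.05 for B cells, -0.19 for T cells and 0.04 for the erythroid list, with 0.52 for platelets. CH replicate 1 had -0.91 for B cells and -0.46 for T cells. CH replicate 3, the highest CH mouse in the oxidase genes, had 1.39 for B cells, 1.25 for T cells and 0.98 for monocytes. NX replicate 3 had 0.21, 0.09 and 0.26 for the same cells. The hybridization controls had a mean log2 signal of 13.1 in NX replicates 1 and 4 and 12.3 in NX replicates 2 and 3, the arrays that were low and high in Ngp, Camp and Ltf. The median signal was 57.1 in NX replicate 1, where 19.6% of probe sets were below 16. In the other NX arrays the median was 34.5 to 37.5 and that share 29.1% to 30.6%. The median was 32.85 in CH replicate 4 and 45.7 to 59.9 in the other CH arrays. In REC replicate 1 the erythroid list deviated by 1.04. The part of these in the order of the mice was not tested.

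The balance of early against mature transcripts was taken on each array as the mean log2 signal of the 4 specific granule genes minus that of the 6 mature genes, a difference whose zero has no meaning. It was -2.81, -1.81, -2.61 and -1.37 in CH mice, -3.28, -2.49, -1.92 and -2.41 in REC mice and -3.39, -2.05, -2.11 and -4.08 in NX mice. The groups overlapped throughout, with the lowest NX mouse below all others and the highest CH mouse above them. The means were -2.15 ± 0.67 in CH, -2.52 ± 0.56 in REC and -2.91 ± 1.00 in NX (SD, n = 4 each), so that CH exceeded NX by 0.76 and REC exceeded NX by 0.39, each less than the spread among NX mice, and CH exceeded REC by 0.38. With Mmp8 and Mmp9 left out of the mature genes, CH exceeded NX by 0.745, REC exceeded NX by 0.347 and CH exceeded REC by 0.398. Quantile normalization, with all 6 mature genes, raised the difference of CH over NX to 1.26 and that of CH over REC to 0.94. No test was made of this difference because the members were chosen with results of these data known. Without NX replicate 4, CH exceeded NX by 0.37 and REC differed from NX by -0.0061. Without CH replicate 4, CH exceeded NX by 0.50, and CH exceeded REC by 0.12 without CH replicate 4 and by 0.12 without REC replicate 1.

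**Figure D4:**
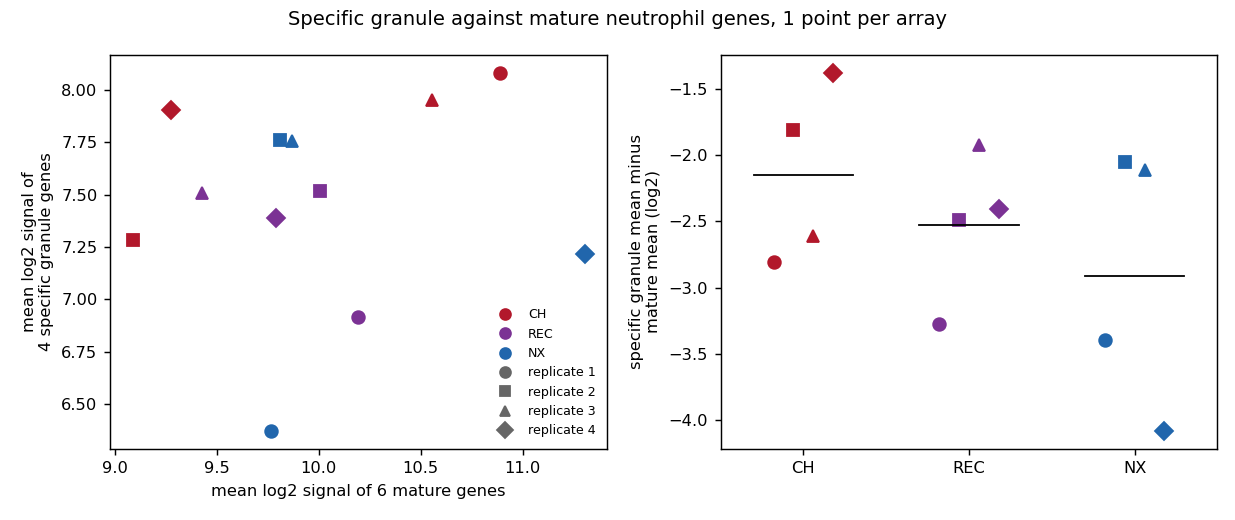
Left, mean log2 signal of 4 specific granule genes against that of 6 mature genes, 1 point per array. Right, their difference in CH, REC and NX with a line at the mean of each group (-2.15, -2.52 and -2.91); NX replicate 4 is lowest at -4.08 and CH replicate 4 highest at -1.37.

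The other genes of the neutrophil were read from 6 lists. None of 6 azurophil granule genes was called in any comparison. By p alone, Ctsc passed lower in CH than in NX (-0.87, adjusted p = 0.044 from limma). In CH against REC, Ctsc passed lower (-0.92, adjusted p = 0.028) and Ms4a3 higher (0.97, adjusted p = 0.047, both limma), where 35.7% of all probe sets passed. Leaving out 1 array gave 0 to 1 calls in CH against NX and in CH against REC. Of all probe sets, 22.0% were called in CH against NX, 4.36% in REC against NX and 27.8% in CH against REC. Mpo, Elane, Prtn3 and Ctsg, which encode the main azurophil granule proteins, had signals of at most 44.9 in CH, 13.7 in REC and 23.7 in NX mice. The count of so few and mostly dim genes does not set this list apart. Of 6 further specific granule genes 1 was called, lower in CH than in REC, where 15.2% of all probe sets were, a share near that of the list. It was Pglyrp1, a peptidoglycan recognition protein, with 590 ± 371 in CH and 2782 ± 306 in REC (SD, n = 4 each). Of 14 further mature neutrophil genes, 2 were called lower in CH than in NX, where 13.9% of all probe sets were, and 3 lower in CH than in REC, where 15.2% were. These shares are near those of all probe sets, so the list is not set apart by its count. The called genes were Csf2rb, the common receptor chain of GM-CSF and interleukin 3, and Fcgr3, an Fc receptor, in both comparisons, and Clec4d, a lectin receptor, against REC. The calls against NX were lost under quantile normalization (-1.25 for Csf2rb and -0.69 for Fcgr3), with a pseudocount of 1, with the test without moderation, when only the 8 arrays compared were fitted, and without CH replicate 2 or 4 or NX replicate 2, 3 or 4 (-0.99 to -1.54 for Csf2rb and -0.73 to -1.08 for Fcgr3). That of Fcgr3 was also lost with the replicate number as a block and when any 1 REC array was left out. The call of Csf2rb against REC ended under quantile normalization (-1.04), for the mean of its probe sets (-1.04), with a pseudocount of 1, without moderation, with only the 8 arrays, and without CH replicate 2 or 4 or REC replicate 1, 2 or 4 (-0.86 to -1.35).

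The NADPH oxidase, which makes the oxidative burst of phagocytes, stood apart from the granule genes. Of 5 of its genes 4 were called lower in CH than in NX, where 13.9% of all probe sets were, and all 5 lower in CH than in REC, where 15.2% were, at median log2 changes of -1.60 and -2.48. Rac2, its small GTPase, had 680 ± 398 in CH, 3499 ± 89.4 in REC and 2561 ± 585 in NX (SD, n = 4 each), and limma gave an adjusted p = 3.81e-04 for CH against NX. Cybb, its catalytic subunit, had a log2 change of -1.96 there, Ncf1 -1.59 and Cyba -1.39, and no alternative ended these 4 calls. Cyba was also called higher in REC than in NX, as 1.62% of all probe sets were, at 1.32 (adjusted p = 0.024), and lost the call with a pseudocount of 1 and without REC replicate 1, 2 or 3 or NX replicate 1, 2 or 4 (1.16 to 1.37). Monocytes and lymphocytes express several of these genes too. In CH against NX, 6 of 7 B cell markers and 6 of 7 T cell markers were called lower, with medians of -2.21 and -1.64, and 3 of 10 monocyte markers, with -0.81. Of 5 NK cell markers 3 were lower and 1 higher, of 5 eosinophil markers 1 was lower, of 6 platelet markers 0 were called, and of 5 erythroid markers 4 were higher, beside 8.04% of all probe sets called higher and the 13.9% called lower. The part of these cells in the oxidase values was not tested.

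Of 5 transcription factors of granulocytes, 1 was called lower in CH than in NX, where 13.9% of all probe sets were, so that count does not set the list apart. It was Cebpa, which drives the granulocyte lineage, with 55.4 ± 51.1 in CH and 201 ± 41.2 in NX (SD, n = 4 each, log2 change -1.83, adjusted p = 0.00302 from limma). In CH against REC 3 were called lower, where 15.2% of all probe sets were. These were Cebpa, Gfi1 and Spi1, and Spi1 lost the call under quantile normalization (-0.96). Of 8 genes for ligands of CXCR2 and CSF3R and for the CXCL12 axis, which holds neutrophils in the marrow, 1 was called lower in CH than in NX. It was Cxcr4, and its share of the list is near the 13.9% of all probe sets called lower there. Cxcr4, the receptor of CXCL12, had 1116 ± 240 in CH, 2504 ± 400 in REC and 4327 ± 686 in NX (SD, n = 4 each), a log2 change of -1.96 in CH against NX (adjusted p = 5.75e-05) and -0.79 in REC against NX (adjusted p = 0.084, both limma). It was lower in CH than in REC too, as 15.2% of all probe sets were, and lost that call without CH replicate 2 (-0.998). Cxcl12 was called higher in CH than in REC, as 12.6% of all probe sets were, at signals of 38.0 ± 27.8 in CH and 7.29 ± 6.54 in REC (SD, n = 4 each), a call that most alternatives ended. The log2 change of 1.09 was 0.91 under quantile normalization, 0.78 under median centring, 0.032 with the hybridization control scaling and 0.58 for the mean of its probe sets, and the call was also lost with a pseudocount of 1, without moderation, with only the 8 arrays, with the replicate number as a block and on leaving out CH replicate 2 or 3, REC replicate 2, 3 or 4 or NX replicate 3 or 4 (log2 changes of 0.82 to 1.17). Lymphocytes carry Cxcr4 as well. The G-CSF gene Csf3 and the chemokine genes Cxcl1, Cxcl2, Cxcl3, Cxcl5 and Ppbp were called in no comparison.

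**Figure D5:**
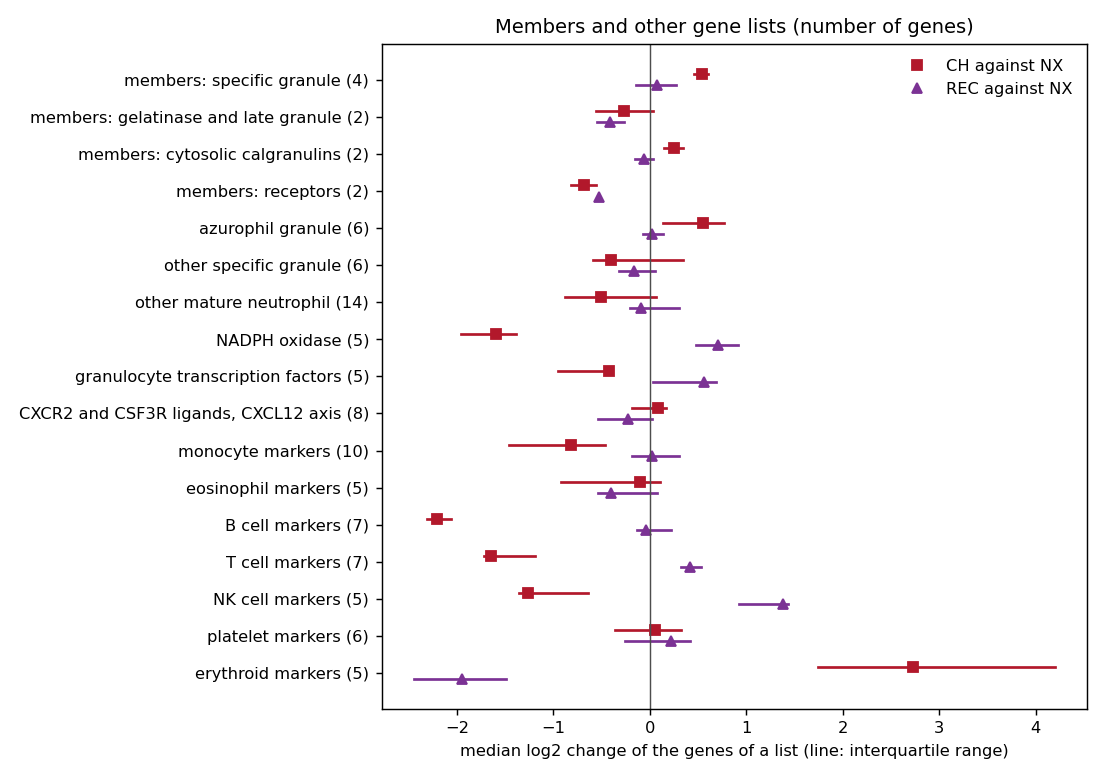
Median log2 change (symbols) and interquartile range (lines) of the member groups, other neutrophil lists and marker lists of other blood cells in CH against NX (squares) and REC against NX (triangles), with the number of genes in brackets. The member groups lie between -0.69 and 0.54 in CH against NX, while B cell markers are at -2.21 and erythroid markers at 2.73.

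The genes most like the members over the 12 arrays were found by the mean absolute difference between their log2 signals, each centred on its own mean, and the mean centred profile of the 10 members. Among 7427 genes with a mean signal of at least 100, whose median difference was 0.71, the nearest were Nudt4 (0.24), the actin-bundling Lcp1 (0.26), the glutathione reductase gene Gsr (0.26), the myeloid adaptor Pram1 (0.27), Mthfd1l (0.27), Tnfaip2 (0.28), Ccng2 (0.28) and Kctd20 (0.28). The members themselves were 0.24 (S100a8) to 0.63 (Camp) from their own mean profile. S100a8, S100a9, Csf3r and Lcn2 were the nearest to it and Camp, Cxcr2 and Ngp the furthest.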

How the data were processed

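Whole blood RNA of 12 mice was measured on 12 Affymetrix Mouse 430 2.0 arrays, 4 each for CH, REC and NX. The authors deposited linear intensities, with 1 signal for each probe set of an array, and equal trimmed means such as global scaling leaves. The arrays were scanned on an Agilent instrument. The authors name GC-RMA for their analysis. GC-RMA usually gives log2 values and this table is linear, and which program made it is not known. No detection call, batch or scan date was at hand. The number of arrays limits the precision. The mice of a group are separate animals.

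Of the 45101 probe sets, 34958 name 1 gene in the annotation of the platform, 932 several and 9211 none, and 34754 were matched to current symbols by gene number. No member is named by a probe set with several genes. A gene is given by its brightest probe set, and the S100a8 set has the suffix that Affymetrix uses where probes may match several transcripts. Group means were fitted to log2(signal + 16) over all 12 arrays (lmFit and eBayes of limma 3.58.1, R 4.3.3), with Benjamini-Hochberg adjustment over all probe sets. The fit was tested on simulated data for CH against NX over 45101 probe sets, of which 200 were changed. It recovered 45% of log2 changes of 1.5 and 85% of those of 2.5, with 10 false calls. In the data 9910 probe sets were called in CH against NX. The simulation gave all groups the same spread, where the median SD was 0.53 in CH, 0.25 in REC and 0.27 in NX. These rates are therefore not the power for the members. Promoter windows came from RefSeq. Python 3.11.15 and matplotlib 3.10.9 drew the plots.

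The members, the 6 neutrophil lists, the 7 marker lists and the tests were chosen with earlier results of these data known, so the counts of a list are descriptions. The rule for named genes took all members, from every other neutrophil list up to 4 called genes with the largest change in a comparison, and the 8 genes nearest to the mean profile of the members. Fpr2, C5ar1, the azurophil genes and the chemokine genes were named outside it, after their values were seen. Alternatives were quantile normalization, median centring, scaling on 18 hybridization control probe sets, a pseudocount of 1, leaving out the dimmer probe sets, a trend and robust prior, a test without moderation, fitting only the 8 arrays compared, array weights, a block for the replicate number, omitting each array in turn, no limit on fold, and the mean of the probe sets of a gene.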

Additional observations from a re-analysis of the deposited data

Results flagged for a closer look

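Groups of 4 arrays were searched for a mouse whose distance from the nearest of the others was large against the range of the group (Dixon's criterion). Of 36 groups, 5 held one. For a single group chance gives about 1 in 20, but the 36 groups are not independent, since members vary together in a mouse. The count is therefore not read against that rate. In NX, replicate 4 stood above the other 3 mice in S100a9 (0.942 of the range), in the dimmer probe set of Mmp9 (0.864), in Csf3r (0.861) and in S100a8 (0.834). In REC, replicate 1 stood above the others in S100a8 (0.922), in a group whose signals ran only from 6947 to 9152. Without NX replicate 4 the log2 change of REC against NX was 0.27 and 0.33 at the brighter and the dimmer Mmp9 probe set, against -0.13 and -0.12 with it.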

How the results depend on the processing

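Under most alternatives the results kept their side of the limits, but the scaling of the arrays moved the number of members called and set the sign of many member changes. The number of member probe sets called was 0 in CH against NX and CH against REC, and it was 2 and 3 under quantile normalization and 7 and 10 with the hybridization control scaling; with no limit on fold it was 1 in CH against REC, and without 1 array 0 to 1 there (1 without CH replicate 2 or 4 or REC replicate 3 or 4) and 0 in the other comparisons. With the hybridization control scaling the sign turned in CH against NX (Ngp -0.71, Camp -1.10, Ltf -0.79, Lcn2 -0.98, S100a8 -1.56, S100a9 -1.16 and Mmp8 -1.13), in REC against NX (Ngp 0.69, Ltf 0.18, S100a9 0.56, Mmp8 0.067, Mmp9, brighter set, 0.67, Mmp9, dimmer set, 0.67, Csf3r 0.27 and Cxcr2 0.21) and in CH against REC (Ngp -1.39, Ltf -0.96, Lcn2 -1.97, S100a9 -1.72, Mmp8 -1.19 and Csf3r -2.17). Quantile normalization turned it in CH against NX (S100a8 -1.16, S100a9 -1.14 and Csf3r 0.049), in REC against NX (Ngp 0.094 and S100a9 0.34) and in CH against REC (S100a9 -1.48). Median centring turned it in CH against NX (S100a8 -0.11), in REC against NX (Ngp 0.10, Mmp9, brighter set, 0.023 and Mmp9, dimmer set, 0.041) and in CH against REC (Csf3r -0.24), and array weights in CH against NX (Camp -0.22 and S100a8 -0.049) and REC against NX (Mmp9, dimmer set, 0.036). The cause was not tested. Leaving out 1 array turned the sign of small changes in CH against NX (Camp -0.027 to 0.55, S100a8 -0.31 to 0.37 and Mmp8 -0.042 to 0.68), in REC against NX (Ngp -0.45 to 0.21, Lcn2 -0.097 to 0.65, S100a8 -0.015 to 0.45, S100a9 -0.37 to 0.0015, Mmp9, brighter set, -0.32 to 0.27 and Mmp9, dimmer set, -0.30 to 0.33) and in CH against REC (Lcn2 -0.14 to 0.71, S100a8 -0.44 to 0.23 and Csf3r -0.27 to 0.41). S100a9 reached 1.01 and was called in CH against REC without CH replicate 2, and Ltf was called there without CH replicate 4 (1.04), REC replicate 3 (1.06) or REC replicate 4 (1.06). The specific granule minus mature difference of CH over NX was 0.75 to 1.26 over the scalings, pseudocount and classes tried, and 0.37 to 1.05 without 1 array. The groups share replicate numbers but not mice. Same-numbered arrays deviated together in some pairs only (r from -0.20 to 0.44 over 12 pairs), so the numbers do not pair the mice, and with the replicate number as a block 0 member probe sets were called in each comparison. With the standard errors of the members, changes near 2-fold were at the edge of what 4 mice per group could show, and the dim Ltf is limited by its signal.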
